A study of Sus scrofa with 9 samples.

Results

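The genes described here are 6 cytokine genes, listed by symbol with earlier results of these data known: IL6, LIF, TNF, TNFSF10, IL10 and CSF1. All 6 were found among the 3890 named genes of a table with 4882 annotated transcript positions, and a gene with several positions is represented by its longest span. The myocardium of 3 female farm pigs was assayed by GRO-seq, in which nuclei extend RNA already being made and the labelled product is sequenced, so that values stand for nascent transcription. The 9 libraries comprise 3 from ischemic, 3 from border zone and 3 from healthy myocardium, with each pig giving 1 of each. Every heart, and so every healthy sample too, had carried a coil in the distal left anterior descending artery for 24 hours. The labels do not say where in the heart the healthy samples were taken, and the minced tissue was digested with collagenase and filtered as cells before nuclei were extracted.

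The cytokines of the IL6 family, among them IL6 and LIF, bind private receptors that pair with the shared subunit gp130, the product of IL6ST, and signal through JAK kinases to the transcription factor STAT3. TNF and TNFSF10 (also called TRAIL) belong to the TNF superfamily, whose trimeric ligands act on receptors that can lead either to NF-kB activity or to cell death. IL10 restrains macrophage activation, also through STAT3, and CSF1 is the growth and survival factor of macrophages. In the infarcted heart these cytokines are known as products of resident cells and of invading leukocytes.

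Levels are given in RPKM, reads scaled to library size and to the length of the annotated gene with its introns, so levels of different genes are compared per length. Library totals were 883656 to 2134087 reads in ischemic, 2187977 to 7005976 in border zone and 2730083 to 6531658 in healthy myocardium. The cytokine genes were weakly transcribed, with 0 to 136 reads per library, and a value from the ischemic zone often rests on fewer reads than one from the other zones. Of the counts from 1 to 30 reads, 32.8% to 53.15% per library were multiples of 3, against 33.3% for an even spread, so reads are not known to be separate molecules, and counting intervals cover counting error only. Tests used limma on log2(RPKM + 0.1) over the 2384 positions whose mean reached 0.5 RPKM, with p-values adjusted over all of them and a threshold of 0.05. The median log2 fold change of all these positions was 0.21 for ischemic over healthy and 0.22 for border zone over healthy, and the fold changes below are to be read beside that shift.

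In ischemic myocardium IL6, LIF, IL10 and CSF1 rose, while TNF and TNFSF10 did not pass the test. In border zone myocardium IL6, LIF and IL10 rose, while TNF, TNFSF10 and CSF1 did not pass. Between ischemic and border zone myocardium none of the 6 genes passed in limma. CSF1 alone had an unadjusted p under 0.05 (0.0155, limma), beside 373 of the 2384 positions. Over all positions 27.6% were called for ischemic against healthy (18.5% higher and 9.1% lower), 6% for border zone against healthy (5.79% higher and 0.21% lower) and 1.13% for ischemic against border zone (0.168% higher and 0.965% lower). IL6, LIF, IL10 and CSF1 averaged under 0.5 RPKM in healthy myocardium and passed the filter only through the other zones, so the number of them called is no evidence about cytokines as a class. For ischemic against healthy 442 positions were higher and 217 lower, against 337 higher and 295 lower with libraries scaled to the same median and 249 higher and 251 lower with quantile normalization.

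**Figure D1:**
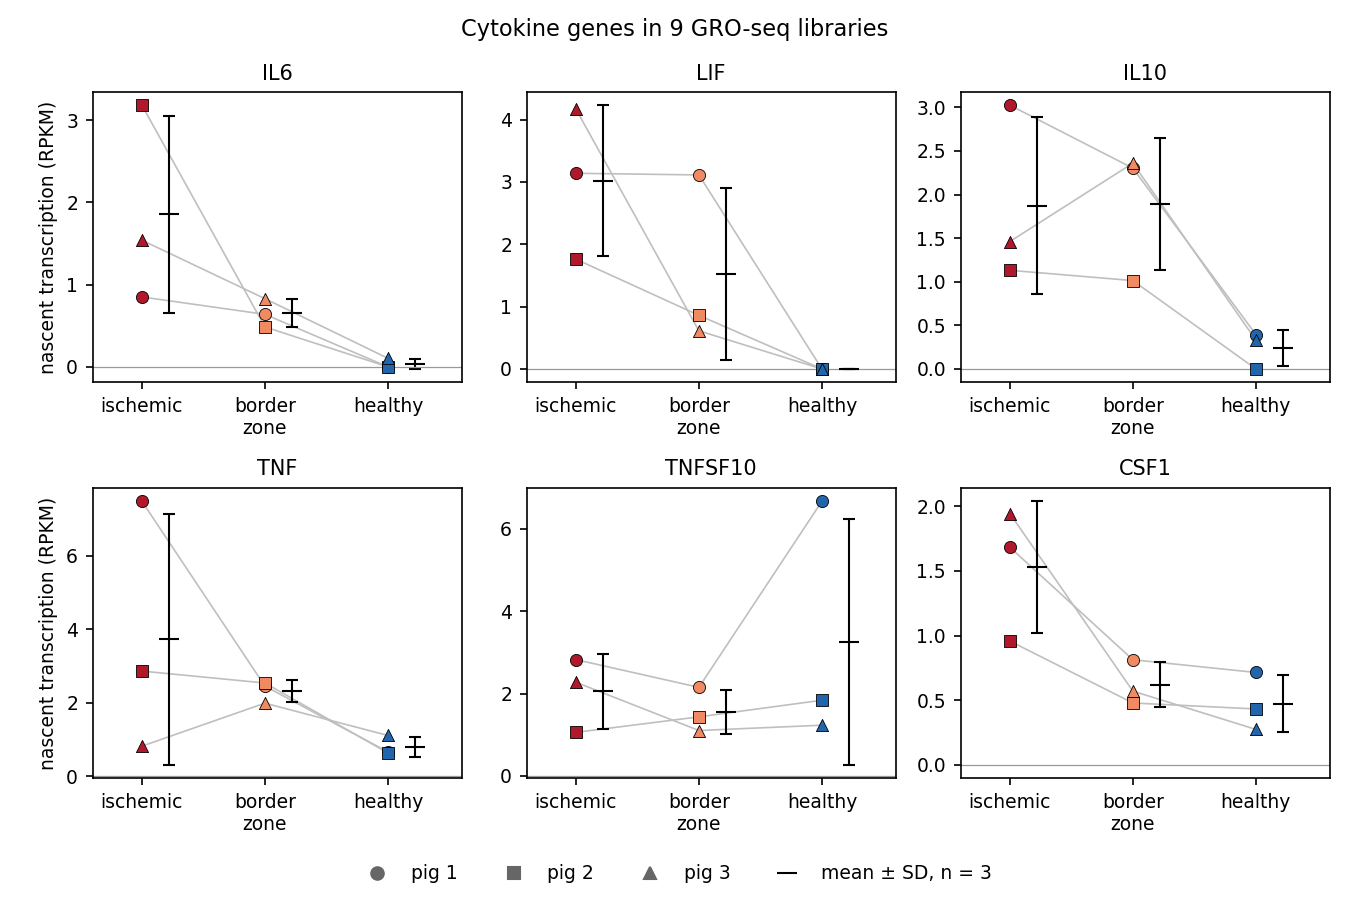
RPKM of each cytokine gene in the 9 libraries, with ischemic on the left, border zone in the middle and healthy on the right, symbols for the pig, grey lines joining samples of a pig, and bars for mean ± SD (n = 3). IL6, LIF and IL10 lie above their healthy values in every ischemic and border zone library, TNF spreads from 0.821 to 7.48 RPKM in ischemic libraries, and TNFSF10 is highest in healthy replicate 1 at 6.67 RPKM.

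LIF, leukemia inhibitory factor, was the only one of the 6 genes without a read in healthy myocardium (NM_214402, chromosome 14 from 50263722 to 50266707 on susScr3, minus strand). It measured 3.14, 1.76 and 4.17 RPKM in ischemic replicates 1 to 3, from 20, 6 and 11 reads. In border zone replicates 1 to 3 it measured 3.11, 0.861 and 0.612 RPKM, from 33, 18 and 4 reads. No healthy library held a read, although each was deeper than every ischemic library, and 3 reads over that group would be 0.0792 RPKM. The border zone libraries together were about as deep as the healthy ones, with 3 reads at 0.0789 RPKM. Set against that assumed floor of 3 reads, the pooled reads of LIF were 37.6-fold higher in ischemic and 18.3-fold higher in border zone than in healthy myocardium. With the 0 healthy reads observed, the exact 95% counting interval of the ratio began at 29.1 for ischemic and at 14.35 for border zone. Leaving out healthy replicate 3, which holds the most reads among healthy libraries, gave lower limits of 14.1 for ischemic and 6.96 for border zone. Without border zone replicate 1 the lower limit for border zone was 7.56. LIF had an adjusted p of 0.00122 for ischemic and 0.00928 for border zone against healthy (limma), and was higher in 3 of 3 pigs in both. The border zone call was lost with a pseudocount of 0.5 (adjusted p = 0.0576) or 1 (0.109).

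Border zone replicate 1 stood apart for LIF, at 3.11 RPKM against 0.861 and 0.612 RPKM in the other border zone libraries, and matched the ischemic sample of the same pig. Ischemic and border zone values therefore overlapped, and the log2 fold change of ischemic over border zone was 1.18, with a 95% interval from -0.10 to 2.47 (adjusted p = 0.362, limma).

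IL6, the founding member of the family and a driver of the acute phase response, was transcribed in both injured zones (NM_214399, chromosome 9 from 101021734 to 101026143, plus strand). It measured 0.85, 3.18 and 1.54 RPKM in ischemic replicates 1 to 3, from 8, 16 and 6 reads. In border zone replicates 1 to 3 it measured 0.639, 0.486 and 0.829 RPKM, from 10, 15 and 8 reads. Healthy replicates 1 and 2 had no read and healthy replicate 3 had 3 reads, or 0.104 RPKM. The 3 zones did not overlap, and the values of every pig were ordered with ischemic highest and healthy lowest. Among all positions 28.4% were higher without overlap in ischemic than in healthy (43.2% in either direction), 25.7% in border zone than in healthy (32.4% in either direction, 6.71% lower) and 8.56% in ischemic than in border zone libraries (20% in either direction). With 30 reads over the ischemic, 33 over the border zone and 3 over the healthy libraries, the pooled ratio of IL6 was 30.5 for ischemic over healthy (exact 95% counting interval 9.49 to 156). For border zone over healthy it was 10.95 (3.44 to 55.8).

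The ischemic ratio of IL6 was 46 without ischemic replicate 1 and 19.6 without ischemic replicate 2. Without healthy replicate 3, which holds the healthy reads, the exact 95% counting intervals began at 11.3 for ischemic and 4.08 for border zone over healthy. IL6 had an adjusted p of 0.00275 for ischemic against healthy in limma, and that call held in all 21 alternatives in which IL6 was tested. For border zone against healthy the adjusted p was 0.0374, and the call was lost in 12 of 21 alternatives, with adjusted p up to 0.195. The log2 fold change of IL6 for ischemic over border zone was 1.22, with a 95% interval from -0.04 to 2.48 (adjusted p = 0.33, limma), higher in 3 of 3 pigs.

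The table lists IL6 at 2 positions of equal span, and this bears on how its level is read. The other position (NM_214399_1) lies on the opposite strand of chromosome 9, 54899 bases further along, from 101081042 to 101085451, whereas a RefSeq table of the later assembly Sscrofa11.1 names a single IL6 gene. It held 15 reads over the ischemic, 17 over the border zone and 2 over the healthy libraries. The position used held 66.7% of the reads of both in ischemic myocardium (exact 95% interval 51 to 80%), 66% in border zone (51.2 to 78.8%) and 60% in healthy myocardium (14.7 to 94.7%), and these intervals overlapped. How reads that fit both positions were assigned is not given in the labels or headers, so the absolute level of IL6 is uncertain. With the reads of both positions summed, a setting chosen after the data were seen, the log2 fold change of IL6 was 4.24 ± 0.53 for ischemic (± SE, adjusted p = 0.00161) and 2.94 ± 0.53 for border zone (adjusted p = 0.0187) over healthy by limma. An accession that the reference table does not name (NM_001252429) lies inside the IL6 span on the same strand and held the same 30, 33 and 3 reads, so those reads enter the table under 2 entries.

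IL10, which encodes an anti-inflammatory cytokine, was transcribed at about the same level in both injured zones (NM_214041, chromosome 9 from 73757707 to 73762354, minus strand). It measured 3.03, 1.13 and 1.46 RPKM in ischemic replicates 1 to 3, from 30, 6 and 6 reads. In border zone replicates 1 to 3 it measured 2.30, 1.01 and 2.36 RPKM, from 38, 33 and 24 reads. The healthy replicates measured 0.394, 0 and 0.329 RPKM, from 5, 0 and 10 reads. Every ischemic and border zone value of IL10 lay above every healthy value, while the injured zones overlapped each other. Over all positions 28.4% were higher without overlap in ischemic and 25.7% in border zone than in healthy libraries. In both zones the sample of pig 2 was the lowest, and pig 2 was also the one without a healthy read.

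The log2 fold change of IL10 over healthy was 2.72 ± 0.66 for ischemic (adjusted p = 0.0195) and 2.76 ± 0.66 for border zone myocardium (adjusted p = 0.0483, limma), each higher in 3 of 3 pigs. With a healthy library at 0 these values depend on the pseudocount, and ran from 1.17 with 1 to 3.95 with 0.01 for ischemic and from 1.197 to 3.999 for border zone. The ischemic call was lost without ischemic replicate 1 (adjusted p = 0.0631), which supplied 30 of the 42 ischemic reads, and with a pseudocount of 0.01 (0.0583). The border zone call was lost in 16 of 20 alternatives, among them every one that left out a single library, with adjusted p up to 0.187. With pig as a block both calls were kept (adjusted p = 0.00417 for ischemic and 0.0104 for border zone). Ischemic over border zone gave -0.04, with a 95% interval from -1.56 to 1.47, an interval wide enough to hold a 2-fold difference in either direction.

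CSF1, the macrophage growth factor, was the one of the 4 called genes that passed in ischemic but not in border zone myocardium (NM_001244523, chromosome 4 from 120592959 to 120605764, minus strand). It measured 1.68, 0.958 and 1.94 RPKM in ischemic replicates 1 to 3, against 0.814, 0.479 and 0.571 RPKM in border zone and 0.715, 0.433 and 0.275 RPKM in healthy replicates 1 to 3. Ischemic values did not overlap with those of either other zone, and border zone and healthy values overlapped. Over all positions 28.4% were higher without overlap in ischemic than in healthy and 8.56% in ischemic than in border zone libraries. The log2 fold change of CSF1 was 1.52 ± 0.38 for ischemic over healthy (2.87-fold, adjusted p = 0.0211) and 0.37 ± 0.38 for border zone over healthy (adjusted p = 0.64, limma). CSF1 was higher in 3 of 3 pigs in both comparisons and for ischemic over border zone.

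Ischemic over border zone gave 1.15 for CSF1, with a 95% interval from 0.28 to 2.01 that does not allow for the number of positions tested (adjusted p = 0.202), so a difference between the injured zones was not shown at the threshold. The ischemic call of CSF1 was lost with quantile normalization (adjusted p = 0.105) and without healthy replicate 2 (0.0629), healthy replicate 3 (0.0651), ischemic replicate 1 (0.0647) or ischemic replicate 3 (0.0627). The border zone value turned to -0.30 with quantile normalization.

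TNF, an early pro-inflammatory cytokine, separated border zone from healthy libraries without overlap but did not pass the test (NM_214022, chromosome 7 from 27549619 to 27552377, minus strand). It measured 7.48, 2.86 and 0.821 RPKM in ischemic replicates 1 to 3, from 44, 9 and 2 reads. In border zone replicates 1 to 3 it measured 2.45, 2.54 and 1.99 RPKM, from 24, 49 and 12 reads. The healthy replicates measured 0.664, 0.635 and 1.11 RPKM, from 5, 6 and 20 reads. Over all positions 25.7% were higher without overlap in border zone than in healthy libraries (32.4% in either direction), so such a separation was common. Ischemic values of TNF spread 9.11-fold, the widest within-zone range among the 6 genes where every library had a read, while the border zone values spread 1.28-fold. Pig 3 had the lowest ischemic and border zone values and the highest healthy value.

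For TNF the log2 fold change over healthy was 1.64 ± 0.65 in ischemic (adjusted p = 0.0939, higher in 2 of 3 pigs) and 1.46 ± 0.65 in border zone myocardium (adjusted p = 0.243, higher in 3 of 3 pigs, limma). The ischemic comparison passed without ischemic replicate 3 (log2 fold change 2.43, adjusted p = 0.0111), whose value rests on 2 reads, and by limma-voom on recovered reads (adjusted p = 0.0408). The border zone comparison passed with only border zone and healthy libraries in the fit (adjusted p = 0.0279), a fit that leaves out the ischemic spread. Ischemic over border zone gave 0.19, with a 95% interval from -1.31 to 1.68, and -0.55 without ischemic replicate 1.

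The neighbours of TNF in the table give its values a local setting. LTA and LTB encode lymphotoxins of the TNF superfamily, AIF1 a calcium-binding protein of macrophages, and DDX39B and PRRC2A proteins of RNA handling and of broad expression. LTA, 1356 bases from TNF and on the same strand, held no read in any ischemic or border zone library and 5 reads in healthy replicate 3. LTB, 2461 bases away on the opposite strand, measured 2.47, 2.77 and 5.37 RPKM in ischemic, 0.742, 1.13 and 2.17 RPKM in border zone and 0.965, 1.38 and 2.66 RPKM in healthy replicates 1 to 3. LTB was highest in pig 3 in every zone, the pig in which TNF was lowest in both injured zones. LTB did not pass for ischemic over healthy (1.07 ± 0.49, adjusted p = 0.139), but did so in the fit blocked on pig (0.00647), which also called it higher in ischemic than in border zone myocardium (0.0374). AIF1, 26804 bases away, rose in ischemic myocardium (2.70 ± 1.71 RPKM, against 0.145 ± 0.251 in healthy, SD, n = 3 each, adjusted p = 0.0126). DDX39B averaged 9.48 ± 2.77 RPKM in ischemic, 7.60 ± 0.96 in border zone and 7.88 ± 1.37 in healthy myocardium, with adjusted p of 0.572 for ischemic and 0.954 for border zone against healthy.

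**Figure D2:**
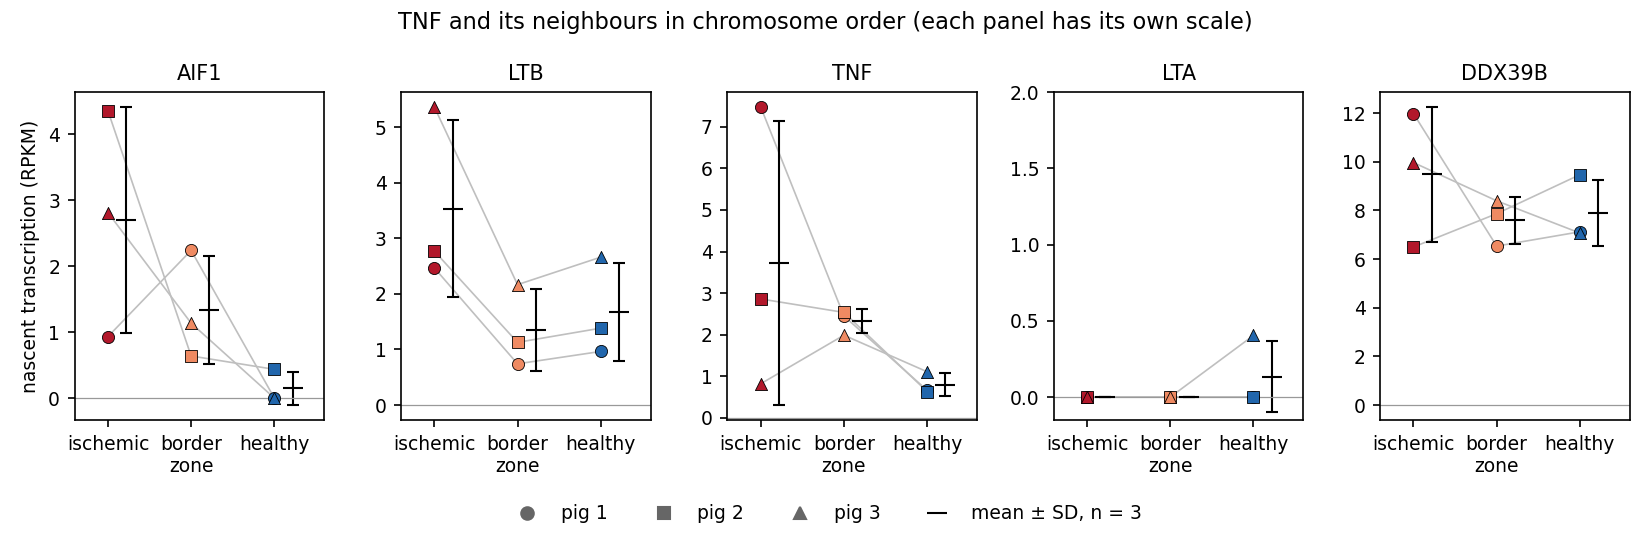
RPKM of TNF and of neighbouring genes in the 9 libraries, panels in chromosome order and each with its own scale, with ischemic left, border zone in the middle and healthy right. LTA is at 0 in all but healthy replicate 3, LTB keeps the order of the pigs in each zone, and DDX39B lies between 6.49 and 11.97 RPKM throughout.

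TNFSF10, whose product TRAIL can trigger apoptosis through death receptors, was the most transcribed of the 6 genes in healthy myocardium and did not pass in any comparison (NM_001024696, chromosome 13 from 119874761 to 119882228, plus strand). It measured 2.82, 1.06 and 2.27 RPKM in ischemic, 2.15, 1.43 and 1.10 RPKM in border zone and 6.67, 1.84 and 1.23 RPKM in healthy replicates 1 to 3. Pig 1 had the highest value in each zone, and healthy replicate 1, with 136 reads, lay above all other libraries. The log2 fold change over healthy was -0.37, with a 95% interval from -1.78 to 1.03, in ischemic (adjusted p = 0.683) and -0.69, from -2.10 to 0.72, in border zone myocardium (adjusted p = 0.582, limma). Without healthy replicate 1 these values were 0.32 and 0.00, and without ischemic replicate 2 the ischemic value was 0.02, so the group means of TNFSF10 rest on single libraries. Within pigs TNFSF10 was lower in border zone than in healthy myocardium in 3 of 3, by little in pigs 2 and 3, and lower in ischemic than in healthy myocardium in 2 of 3.

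The order of the 6 genes by level differed between zones. By mean RPKM in ischemic myocardium it was TNF at 3.72, LIF at 3.02, TNFSF10 at 2.05, IL10 at 1.87, IL6 at 1.86 and CSF1 at 1.53, and the ranges of neighbours in that order overlapped throughout. With both IL6 positions summed IL6 averaged 2.79 RPKM there, which would place it between LIF and TNFSF10. In border zone myocardium it was TNF at 2.33, IL10 at 1.89, TNFSF10 at 1.56, LIF at 1.53, IL6 at 0.651 and CSF1 at 0.621, again with overlap between neighbours. In healthy myocardium TNFSF10 at 3.25 stood above TNF at 0.803 without overlap, followed by CSF1 at 0.474, IL10 at 0.241, IL6 at 0.0347 and LIF at 0, where neighbours from TNF to IL6 overlapped.

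**Figure D3:**
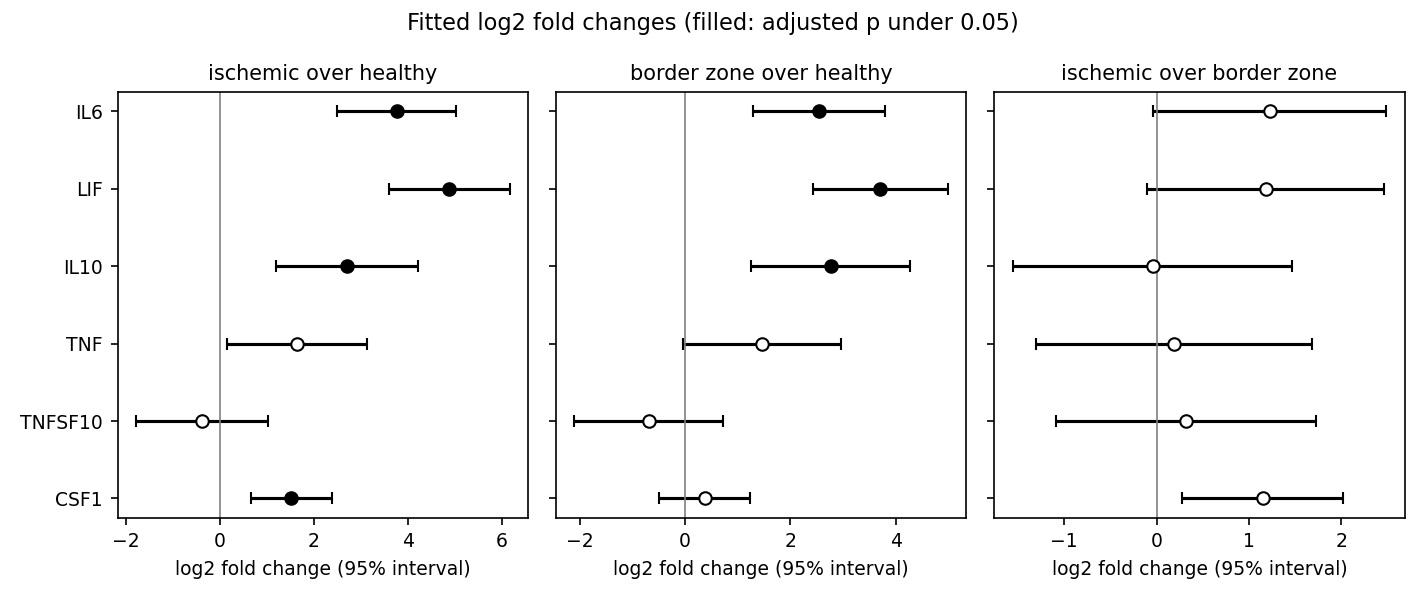
Fitted log2 fold changes of the cytokine genes with 95% intervals from limma, for ischemic over healthy, border zone over healthy and ischemic over border zone, with filled points for an adjusted p under 0.05. LIF and IL6 have the highest values for ischemic over healthy, at 4.88 and 3.76, and these and IL10 depend on the pseudocount because healthy libraries are at 0 (IL6 runs from 1.38 to 6.17 over pseudocounts of 1 to 0.01), while no point is filled for ischemic over border zone.

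Among the receptors and signalling genes of the IL6 family, the kinases and STAT3 rose modestly in ischemic myocardium and the shared receptor did not pass. Of 22 genes listed, 11 were in the table and 8 were measured, of which 4 rose and 0 fell for ischemic against healthy, beside 18.5% higher and 9.1% lower over all positions, with a median log2 fold change of 0.68 against 0.21 for all positions. STAT3 averaged 3.36 ± 0.19 RPKM in ischemic, 2.87 ± 0.36 in border zone and 1.89 ± 0.09 in healthy myocardium (SD, n = 3 each), and its log2 fold change for ischemic over healthy was 0.80 ± 0.18 (adjusted p = 0.0149, limma). TYK2 at 0.64 ± 0.18, JAK2 at 0.71 ± 0.21 and JAK1 at 0.80 ± 0.23, kinases bound to cytokine receptors, also rose. These calls are fragile: TYK2 and JAK1 were lost in 8 and JAK2 in 9 of 18 alternatives, quantile normalization and a common median among them, and STAT3 without healthy replicate 2 (adjusted p = 0.0547) and with quantile normalization (0.0847). In border zone myocardium 0 of the 8 passed in limma, beside 6% of all positions called. Of the 8, 4 had an unadjusted p under 0.05, beside 510 of the 2384 positions. Limma-voom called 2 (JAK2 and CEBPB), beside 296 positions. For ischemic against border zone 0 of the 8 passed in limma and 0 were called by limma-voom. SOCS1 alone had an unadjusted p under 0.05 in limma, beside 373 of the 2384 positions.

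The uncalled genes of that list went different ways. IL6ST, the gp130 receptor subunit, averaged 3.04 ± 0.65 RPKM in ischemic, 2.72 ± 0.10 in border zone and 2.95 ± 0.20 in healthy myocardium, with a log2 fold change of 0.02 ± 0.21 for ischemic over healthy that changes sign with the scaling. SOCS1, a feedback inhibitor of JAK kinases, had 1 read over the ischemic, 25 over the border zone and 7 over the healthy libraries, with log2 fold changes over healthy of -2.09 ± 0.73 for ischemic (adjusted p = 0.0648) and 1.56 ± 0.73 for border zone (adjusted p = 0.263, limma). The ischemic value of SOCS1 rests on 1 read, which with the low ischemic depth does not show a fall relative to healthy myocardium: over alternatives it ran from -4.20 with a pseudocount of 0.01 to -0.30 by limma-voom (adjusted p = 0.822), and 4 of 18 passed, the fit blocked on pig among them (0.0232). Blocked on pig, SOCS1 was also called lower in ischemic than in border zone myocardium (adjusted p = 0.0374, against 0.0637 without the block). CEBPB, a transcription factor induced by IL6, averaged 22.5 ± 15.3 RPKM in ischemic, 20.7 ± 7.18 in border zone and 5.15 ± 0.82 in healthy myocardium, with log2 fold changes over healthy of 1.77 ± 0.63 for ischemic (adjusted p = 0.0675) and 1.93 ± 0.63 for border zone (0.124), and limma-voom called it in both zones. SOCS3 has its position on an unplaced scaffold, and none of the 548 scaffold positions held a read in any library, so it could not be measured.

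Several genes around the TNF and TRAIL receptors rose in ischemic myocardium. Of 23 listed, 14 were in the table and 12 measured, of which 7 rose and 0 fell for ischemic against healthy, beside the same 18.5% and 9.1%, with a median log2 fold change of 1.31. Blocked on pig, XIAP, an inhibitor of caspases, was called lower (-0.79, adjusted p = 0.0368, against 0.0612 without the block) and RELA, an NF-kB subunit, higher (1.17, adjusted p = 0.0402, against 0.0603). ADAM17, the protease that sheds TNF from the cell surface, measured 2.09 ± 0.20 RPKM in ischemic and 0.671 ± 0.065 in healthy myocardium (SD, n = 3 each, log2 fold change 1.51 ± 0.26, adjusted p = 0.00502, limma). TNFAIP3, a brake on NF-kB, had 2.50 ± 0.48 (adjusted p = 0.00852), the secreted TNF-induced protein TNFAIP6 had 1.97 ± 0.42 (0.0119) and the death receptor adaptor FADD had 2.05 ± 0.46 (0.015). These 4 calls held in every alternative in which the gene was measured, 19 for TNFAIP3 and 18 for each of the others. The choice of position was not among those alternatives. The receptor TNFRSF1A, CFLAR, an inhibitor of caspase activation at death receptors, and NFKBIA, the inhibitor of NF-kB, also rose. TNFRSF1A was lost without healthy replicate 2 (adjusted p = 0.0525), CFLAR without healthy replicate 2 or ischemic replicate 1 (up to 0.0687), and NFKBIA in 6 of 19 alternatives. In border zone myocardium TNFAIP3 was the 1 of 12 that passed (2.81 ± 0.48, adjusted p = 0.0168, limma), beside 5.79% higher over all positions. That call was lost in 5 of 19 alternatives, and blocked on pig CFLAR (adjusted p = 0.036) and TNFAIP6 (0.0296) passed too. Limma-voom called 6 of the 12 in border zone myocardium, beside 296 of the 2384 positions. In limma 7 of the 12 had an unadjusted p under 0.05, beside 510 of the 2384 positions. In ischemic against border zone 0 of the 12 passed in limma, with 0 at an unadjusted p under 0.05 and 0 called by limma-voom.

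**Figure D4:**
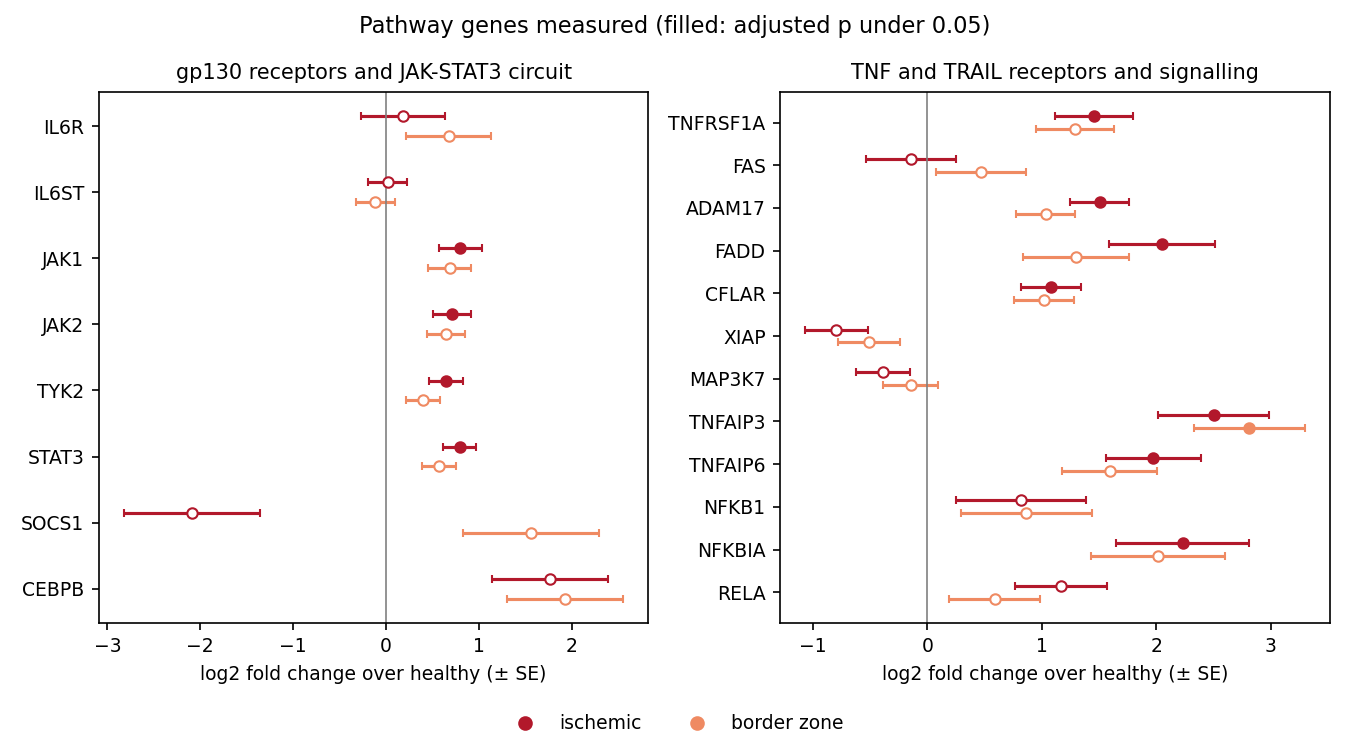
Log2 fold change over healthy with SE for measured genes of the IL6 receptor and STAT3 circuit and of TNF and TRAIL signalling, in ischemic and border zone myocardium, filled where the adjusted p is under 0.05. TNFAIP3 has filled points in both zones, at 2.50 in ischemic and 2.81 in border zone, and SOCS1 lies at -2.09 in ischemic, from 1 read, and at 1.56 in border zone.

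Most other ligands of these families could not be tested, some for few reads and IL27, TNFSF12 and TNFSF13, like the receptor gene IL10RB, because they are placed on scaffolds where no position held a read. Of 14 TNF superfamily ligands 12 were in the table and 3 were measured, TNF, TNFSF10 and LTB, and none passed in limma in any comparison. TNF alone had an unadjusted p under 0.05 for ischemic against healthy, LTB alone for ischemic against border zone and 0 of the 3 for border zone against healthy. Over the 2384 positions the numbers were 965, 373 and 510 in that order. TNFSF13B, a B-cell survival factor named here after its values were seen, stayed under the filter with 0.85, 0.658 and 0.637 RPKM in ischemic, 0.651, 0.303 and 0.5 RPKM in border zone and 0.103, 0.073 and 0.0814 RPKM in healthy replicates 1 to 3. The zones of TNFSF13B did not overlap with healthy myocardium, beside 28.4% (ischemic) and 25.7% (border zone) of the tested positions higher without overlap. In the limma fit without a filter its log2 fold change was 2.13 ± 0.29 for ischemic (adjusted p = 0.00398) and 1.61 ± 0.29 for border zone over healthy (adjusted p = 0.0315). That fit called 656 positions for ischemic and 95 for border zone against healthy. FASLG, which encodes the ligand of the death receptor FAS, had 10 reads over the ischemic, 19 over the border zone and 4 over the healthy libraries. In the fit without a filter its log2 fold change was 1.67 ± 0.43 for ischemic over healthy (adjusted p = 0.0363). Other ligands under the filter did not pass there. TNFSF4 (-1.19), TNFSF14 (-0.99) and LTA (-0.78) had 0 ischemic reads, and CD40LG was at 0.32 and TNFSF15 at 0.58 for ischemic over healthy. CSF3, the granulocyte growth factor, had 10 reads over the ischemic, 6 over the border zone and 2 over the healthy libraries, and CSF2 had none. Of the IL10 family and its receptors IL10 alone was measured.

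Summed markers of macrophages and monocytes and of neutrophils were higher in ischemic and border zone than in healthy libraries, as were IL6, LIF and IL10, whereas TNFSF10 was not. The 10 macrophage and monocyte markers in the table, of 13 listed, summed to 27.9 to 33.4 RPKM in ischemic, 10.4 to 24.9 in border zone and 1.98 to 3.798 in healthy libraries, with CD163 and FCGR3A, which lie on scaffolds, at 0 throughout. The 4 neutrophil markers of 8 listed summed to 14.1 to 30.2 RPKM in ischemic, 5.28 to 10.8 in border zone and 0.0813 to 0.323 in healthy libraries, where S100A8, S100A9 and S100A12 held no read. Lymphocyte markers, 10 of 10 in the table, summed to 6.37 to 11.3, 4.63 to 10.2 and 1.74 to 4.44 RPKM in the same order, with CD79B at 0 in healthy myocardium. Of the 4 measured, IL2RG alone rose in ischemic and in border zone myocardium, beside 18.5% and 5.79% higher over all positions. Endothelial markers, 6 of 9, summed to 13.9 to 30.4, 7.17 to 16.1 and 5.73 to 8.17 RPKM, and fibroblast markers, 5 of 8, to 12.2 to 16.7, 10.4 to 12.7 and 8.46 to 11.6 RPKM. Fibroblast markers did not move as one for ischemic over healthy, with COL1A2 (0.81) and COL3A1 (0.82) called higher and DCN at -0.57 and LUM at -0.63, both not called. The 8 cardiomyocyte markers of 12 summed to 67.2 to 197 RPKM in ischemic, 142 to 245 in border zone and 295 to 525 in healthy libraries, and all 8 had reads in every zone. MYH7 made up the highest share of that sum. Of the 8 markers 5 fell in ischemic relative to healthy myocardium, beside 9.1% lower over all positions. MYH7 at -1.43, TNNI3 at -1.41 and NPPA at 0.66 ± 1.61 on the log2 scale were not called. In ischemic myocardium 7 of 7 measured macrophage, 3 of 4 neutrophil and 3 of 4 endothelial markers rose, beside 18.5% over all positions. In border zone myocardium 3 of 7, 2 of 4 and 0 of 4 rose, beside 5.79%. All 4 neutrophil markers averaged under 0.5 RPKM in healthy myocardium and passed the filter only through the other zones. CD14 (14.4 RPKM) and CLDN5 (12.6 RPKM) led the macrophage and endothelial sums in ischemic myocardium. In these bulk samples more cells of a type and more transcription per cell cannot be told apart, and the part of cell makeup in the values of the cytokine genes was not tested.

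**Figure D5:**
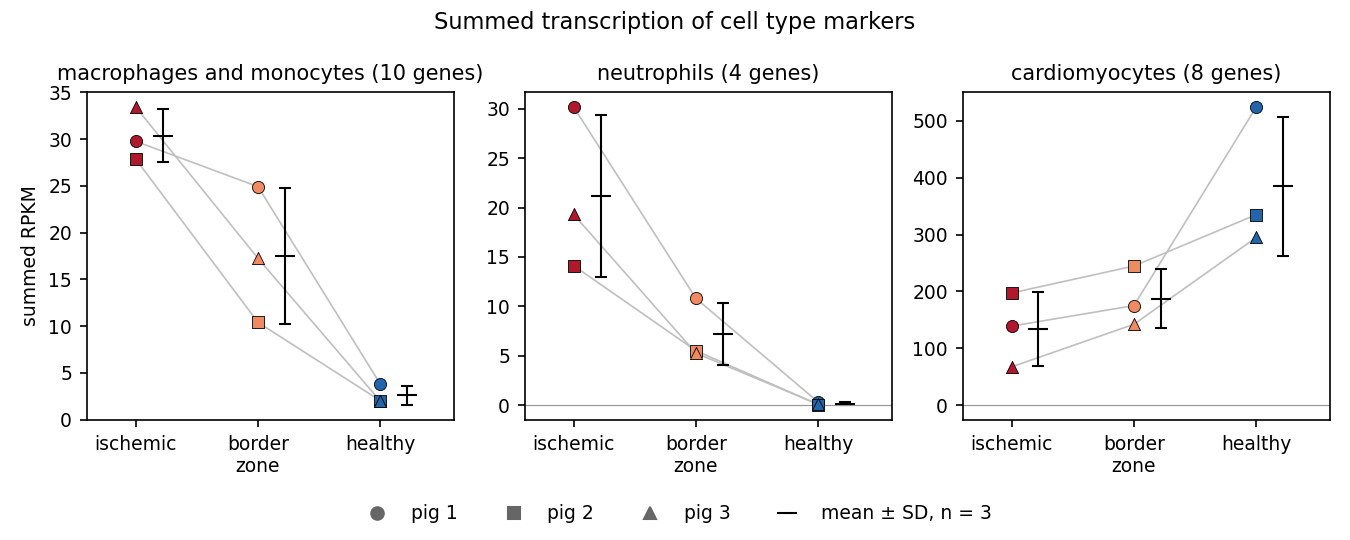
Summed RPKM of macrophage and monocyte, neutrophil and cardiomyocyte markers in the 9 libraries, with ischemic left, border zone in the middle and healthy right, and bars for mean ± SD (n = 3). Both leukocyte sums are lowest in healthy libraries and the cardiomyocyte sum is highest there.

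The genes whose values ran most like each cytokine gene were found by Pearson's r of log2(RPKM + 0.1) over the 9 libraries among 1986 other measured genes, as a description in which the libraries share zone and depth. For IL6 they were CHI3L1, a chitinase-like glycoprotein (r = 0.98), TNC, tenascin C (0.97), and the chemokine gene AMCF-II (0.96). For LIF they were CDA, cytidine deaminase (0.98), GPR84, a receptor of myeloid cells (0.98), and VDR, the vitamin D receptor (0.98). For IL10 they were the receptor TLR6 (0.98), PMAIP1, a pro-apoptotic protein (0.97), and ITM2C (0.97). TLR6 averaged 1.69 RPKM in ischemic, 2.02 in border zone and 0.354 in healthy myocardium, the same near-equal levels in the injured zones that IL10 showed. For CSF1 they were the translation factor gene EEF1B2 (0.97), the ubiquitin gene UBB (0.95) and HMGN2 (0.94), and for TNF they were NOP2 (0.94), DTNBP1 (0.93) and GNL1 (0.93). For TNFSF10 the nearest were RNF7 (0.85) and the microRNA loci MIR504 and MIR374A (0.81 each), which both held reads in healthy replicate 1 alone.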

How the data were processed

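The authors aligned reads to susScr3 with Bowtie, per the submitters' processing notes, and deposited RPKM per library for 4882 annotated positions, with span and exon length, per the file headers. Version, counting program, strand setting and the treatment of duplicate or multiply mapping reads are not stated in any label or header. Library totals and reads were recovered from RPKM and span: all nonzero values were whole reads within 0.01. Names came from a Sscrofa11.1 RefSeq table (4793 positions matched). Values were taken to log2(RPKM + 0.1), and positions averaging 0.5 RPKM or more were fitted with limma 3.58.1 (R 4.3.3, eBayes with trend and robust settings, 9 libraries, 3 groups as terms), 2-sided, Benjamini-Hochberg adjusted within a comparison at 0.05. The code was tested on simulated data. Python 3.11.15 with pandas 2.3.3, scipy 1.17.1 and matplotlib 3.10.9 made tables, exact counting intervals and figures. Equal spans were resolved by taking the identifier without a copy suffix.

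The cytokine genes and the gene lists were chosen with earlier results of these data known. Besides the 6 genes, up to 4 called genes of smallest p per list and the 3 nearest patterns were named. IL6ST, CEBPB, XIAP, RELA, SOCS1, SOCS3, TNFRSF1A, CFLAR, NFKBIA, FASLG, CD40LG, TNFSF4, TNFSF13B, TNFSF14, TNFSF15, CSF2, CSF3 and the neighbours of TNF were named outside that rule after their values were seen. The labels give the animal of each sample, so replicate numbers pair samples. Deviations of same-pig libraries correlated with r of -0.0367 to 0.179, and of other pairs with -0.156 to 0.0816. The p-values measure the spread between 3 pigs. Alternatives covered pseudocounts, filters, scaling, the pig block, a fit on 2 groups, limma-voom, the choice of position and each library left out. The choice of position was varied for the cytokine genes and for the number of list genes called, not for single list genes. Some genes of the lists are not reported here.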

Additional observations from a re-analysis of the deposited data

How the results depend on the processing

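The ischemic calls of IL6 and LIF against healthy held in every alternative in which these genes were tested (21 for IL6 and 20 for LIF). No cytokine gene passed for ischemic against border zone in any alternative. Ischemic against healthy called 659 positions (27.6%), 4 of the 6 cytokine genes and 15 of the 27 measured genes of the pathway lists, which include those 4. With the filter at 2 RPKM these counts were 346, 0 (of 2 still tested) and 7, by fewer genes tested. With single libraries left out they ran from 357 (without healthy replicate 2) to 697, from 2 (without ischemic replicate 1) to 4 and from 8 to 18. List genes numbered 13 with the position of highest mean RPKM. Border zone against healthy called 143 positions (6%), 3 cytokine genes and 4 list genes, which include those 3. Positions numbered 86 with a pseudocount of 0.5, 48 with 1, 95 without a filter, 76 with the filter at 2 RPKM, 84 with the same median, 85 with quantile normalization and 296 by limma-voom. The cytokine genes called numbered 1 with a pseudocount of 0.01, the same median or quantile normalization, and 0 with a pseudocount of 0.5 or 1 or the filter at 2 RPKM. The list genes numbered 2 with a pseudocount of 0.01, the filter at 2 RPKM, the same median or quantile normalization, 1 with 0.5, 0 with 1 and 11 by limma-voom. With libraries left out these 3 counts ran from 35 (without border zone replicate 1) to 174, from 1 to 2 and from 1 to 6. Ischemic against border zone called 27 positions, 0 cytokine genes and 0 list genes (373 positions had an unadjusted p under 0.05 in limma). Positions numbered 10 with a pseudocount of 0.5 or 1, 3 without a filter, 8 with the same median, 5 with quantile normalization, 1 with only the 2 groups in the fit and 92 by limma-voom, and from 0 to 39 with libraries left out. List genes numbered 2 with pig as a replicate block (LTB and SOCS1), 1 with the position of highest mean RPKM and 0 to 1 with libraries left out.

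With pig as a replicate block no call of a cytokine gene changed. For TNFSF10 over healthy, ischemic ran from -0.8552 to 0.3187 and border zone from -1.173 to 0.001148 on the log2 scale with libraries left out. Border zone over healthy for CSF1 was -0.3037 with quantile normalization. Ischemic over border zone for TNF ran from -0.5474 to 0.973 with libraries left out, and for IL10 from -0.4347 to 0.2369, with 0.001554 for the same median and 0.3624 by limma-voom. IL6ST over healthy in ischemic myocardium was -0.1918 with the same median, -0.2738 with quantile normalization and from -0.1117 to 0.1931 with libraries left out. Apart from the counts with fewer genes tested, the cause was not tested. Depth limits these results: 30 ischemic reads of IL6 and 37 of LIF carry them. The alternatives with the IL6 positions summed and the longest span on a chromosome, were chosen after the data were seen.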
